A study of Rattus norvegicus with 25 samples.

Results

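Ppp1r15a and 9 further genes of the integrated stress response and the unfolded protein response were followed in the striatum of 25 female Sprague Dawley rats. The 10 genes were taken by symbol from a table of 28909 gene names. Ppp1r15a was selected on its own counts in these libraries, in which it was lower at both trapidil doses, so its difference from levodopa alone is given as a description with no test. The other 9, Ppp1r15b, Atf4, Ddit3, Atf3, Trib3, Eif2ak3, Xbp1, Chac1 and Asns, were chosen by their place in these pathways. That choice was made with earlier results of these data known. All 10 were in the table, and 9 had enough reads to be tested; Trib3 did not.

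Every animal, controls included, carried a lesion made with 6-OHDA, a toxin that destroys dopamine neurons, and received levodopa at 6 mg/kg QD for 14 days. The series title names levodopa with benserazide. One arm also received trapidil at 15 mg/kg BID (n = 10), a second trapidil at 7.5 mg/kg BID (n = 10), and the third levodopa alone (n = 5). The striatum on the lesioned side was collected on day 15, and the design text places this 1 hour from dosing, with no word on before or after. Neither an unlesioned arm nor one without levodopa was analysed here, so differences are those between levodopa with trapidil and levodopa alone. Polyadenylated RNA was sequenced, 1 library per animal, and the rats' ages are not stated.

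In the integrated stress response, kinases that sense different stresses phosphorylate the translation initiation factor eIF2α, which lowers general protein synthesis and favours translation of the transcription factor ATF4. Protein phosphatase 1 then removes the phosphate when it is guided to eIF2α by GADD34, the product of the stress-inducible gene Ppp1r15a, or by CReP, the product of its constitutively expressed relative Ppp1r15b. The kinase PERK, encoded by Eif2ak3, joins this pathway to the unfolded protein response of the endoplasmic reticulum, in which XBP1 and ATF6 raise the supply of chaperones. In neurons eIF2α phosphorylation is also known to take part in synaptic plasticity.

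The start regions of Ppp1r15a, Ppp1r15b, Xbp1 and Chac1 are shown because Ppp1r15a and Ppp1r15b are the phosphatase subunits that the results turn on, Xbp1 had the largest positive fold change of the members, and the Chac1 window is the other one with the ATF4 element. They run from 250 bases before to 50 bases after the annotated start, are written 5′ to 3′ on the gene's strand, and were taken from RefSeq on the GRCr8 build, in which 9 of the 10 members matched. The counts were made on Rnor_6.0, so the positions are those of GRCr8 alone. Capitals mark letters of the motifs searched on both strands: TTGCATCA (ATF4 element), TGACGTCA (cyclic AMP response element, CRE), TGACG (the CRE core, which lies inside every CRE), the core of the serum response element, and the endoplasmic reticulum stress element, which begins with CCAAT and ends with CCACG.
Ppp1r15a, chr1:105139547-105139846, - strand: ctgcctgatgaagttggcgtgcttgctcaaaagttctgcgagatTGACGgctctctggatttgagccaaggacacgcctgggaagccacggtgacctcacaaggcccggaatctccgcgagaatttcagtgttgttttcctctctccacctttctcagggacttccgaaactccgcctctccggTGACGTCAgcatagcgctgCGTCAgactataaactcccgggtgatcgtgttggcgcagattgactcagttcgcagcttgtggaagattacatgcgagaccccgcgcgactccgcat
Ppp1r15b, chr13:47129750-47130049, + strand: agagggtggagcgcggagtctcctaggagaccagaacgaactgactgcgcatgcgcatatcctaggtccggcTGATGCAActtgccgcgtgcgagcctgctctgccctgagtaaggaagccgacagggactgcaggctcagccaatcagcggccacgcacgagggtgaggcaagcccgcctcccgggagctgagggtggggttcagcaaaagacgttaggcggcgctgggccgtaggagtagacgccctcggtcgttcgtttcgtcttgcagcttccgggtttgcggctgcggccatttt
Xbp1, chr14:84604373-84604672, + strand: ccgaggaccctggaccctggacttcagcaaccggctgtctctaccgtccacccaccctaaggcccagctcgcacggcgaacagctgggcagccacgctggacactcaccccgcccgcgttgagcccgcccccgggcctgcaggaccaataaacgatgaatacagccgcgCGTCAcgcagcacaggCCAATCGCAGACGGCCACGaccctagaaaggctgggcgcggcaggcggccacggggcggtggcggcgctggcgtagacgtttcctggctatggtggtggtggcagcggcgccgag
Chac1, chr3:126795881-126796180, + strand: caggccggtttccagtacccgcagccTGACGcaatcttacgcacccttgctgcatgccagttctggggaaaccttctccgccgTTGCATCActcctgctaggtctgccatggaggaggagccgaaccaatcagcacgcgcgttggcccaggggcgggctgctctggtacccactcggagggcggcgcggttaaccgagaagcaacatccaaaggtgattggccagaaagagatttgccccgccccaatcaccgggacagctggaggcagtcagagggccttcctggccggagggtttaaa
The Ppp1r15a window held a CRE whose first base lay at -66 from the start, with further CRE cores at -206 and -47. Of 33469 windows of this length in the table, 1.83% held a CRE and 21.2% a CRE core. The Ppp1r15b window held the ATF4 element at -178 and the Chac1 window held it at -167, against 0.795% of all windows. The Xbp1 window held the endoplasmic reticulum stress element at -65, against 0.0657% of all windows, and a CRE core at -81. The serum response element core was in 0.0329% of all windows and in none of these 4. Over the 9 windows matched, the ATF4 element was in 2, a CRE in 1, a CRE core in 5 and the endoplasmic reticulum stress element in 1. The windows of the pathway genes Asns, Ddit3 and Eif2ak3 held none of the motifs, and those of Atf4 and Trib3 a CRE core alone. These matches describe letters in the windows; binding was not measured.

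Library totals ran from 13862132 to 20532290 counts at 15 mg/kg, from 10838513 to 18794463 at 7.5 mg/kg and from 16535828 to 19274429 with levodopa alone. Some libraries stood apart. The 7.5 mg/kg replicate 1 had the lowest total and the highest summed cortical neuron markers of its arm (155.5 CPM, against an arm median of 80.2 CPM). Levodopa replicate 2 had the highest share of mitochondrial counts, 17.3%, and the lowest sum of spiny projection neuron markers, 9818 CPM against 13080 to 16830 CPM at 15 mg/kg and 13710 to 17290 CPM at 7.5 mg/kg. It also had the highest sums of astrocyte, oligodendrocyte, endothelial, microglial and choroid plexus markers of its arm. Its sum of pallidal to hypothalamic neuron markers was the highest of the arm too, at 76.37 CPM against an arm median of 39.14 CPM. Levodopa replicate 5 had the highest cortical sum of its arm, 141.7 CPM, with the next animal at 89.91 CPM. CPM values are counts scaled to the size of each library. The 13 spiny projection neuron markers, which define the main striatal cell type, were all detected in the table. Summed oligodendrocyte markers ran from 6689 to 14080 CPM at 15 mg/kg, from 7553 to 16690 CPM at 7.5 mg/kg and from 10920 to 19950 CPM with levodopa alone. Of those 12 markers, 6 were called lower at 15 mg/kg and 0 at 7.5 mg/kg by edgeR, with 12 and 7 lower at an unadjusted p below 0.05; at 7.5 mg/kg DESeq2 called 0 and limma-voom 1. In bulk tissue fewer cells of a type and less RNA per cell cannot be told apart. Endothelial markers had 8 of 8 negative log2 fold changes at both doses (7 and 6 unadjusted), with Slco1a4 called lower at 15 mg/kg by edgeR and 5 by DESeq2. Astrocyte markers had 8 of 8 negative at both doses (3 and 0 unadjusted, 0 called by edgeR, DESeq2 or limma-voom). Microglial markers had 6 of 7 negative at 15 mg/kg and 7 of 7 at 7.5 mg/kg (3 and 0 unadjusted, 0 called by the 3 tools). Over all genes 49.8% and 48.9% were negative. Median astrocyte sums were 3556 CPM at 15 mg/kg, 3508 CPM at 7.5 mg/kg and 3586 CPM with levodopa alone. Endothelial medians were 441, 413.8 and 472.8 CPM and microglial medians 338.8, 338.5 and 366.3 CPM, in the same order. Levodopa replicate 2 had 6714 CPM of astrocyte, 802.6 CPM of endothelial and 586.4 CPM of microglial markers. Ciliated ependymal markers had 9 of 9 positive at both doses, with medians of 1.17 and 0.82 (6 and 0 unadjusted, 0 called by edgeR or DESeq2, 2 by limma-voom at 15 mg/kg). Slc17a6 of the pallidal to hypothalamic neuron list and Ttr of the choroid plexus list were also called lower at 15 mg/kg by edgeR. In the levodopa arm the median and the highest value were 0.797 and 10.98 CPM for Slc17a6 and 0.298 and 23.38 CPM for Ttr. At 15 mg/kg 6 of 8 tested members of the first list and 1 of 4 of the choroid plexus list had negative log2 fold changes. Of the choroid plexus list limma-voom called 1 higher and 0 lower at that dose. What part the differences in these markers has in the results on the stress genes was not tested.

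Ppp1r15a stood at 0.517 of its levodopa level at 15 mg/kg and at 0.514 of it at 7.5 mg/kg. It ran from 29.8 to 38.5 CPM at 15 mg/kg (median 32.3), from 27.6 to 41.8 CPM at 7.5 mg/kg (median 31.7), and was at 69.8, 52.7, 87.2, 37.5 and 74.7 CPM in levodopa replicates 1 to 5. Of the trapidil animals, 9 of 10 at 15 mg/kg and 8 of 10 at 7.5 mg/kg lay below every levodopa animal, and the ranges overlapped through levodopa replicate 4. Mean levels were 33.3 ± 3.08 CPM at 15 mg/kg (SD, n = 10), 33.1 ± 4.8 CPM at 7.5 mg/kg (SD, n = 10) and 64.4 ± 19.5 CPM with levodopa alone (SD, n = 5). The coefficient of variation was 9.25% at 15 mg/kg, 14.5% at 7.5 mg/kg and 30.3% with levodopa alone, the largest of the 3 arms. The log2 fold change was -0.95 ± 0.12 (SE) at 15 mg/kg and -0.96 ± 0.12 at 7.5 mg/kg, and these 2 comparisons share the same 5 levodopa animals. Leaving out any 1 library kept it between -1.10 (without levodopa replicate 4) and -0.82 (without levodopa replicate 3) at 15 mg/kg and between -1.10 and -0.83 at 7.5 mg/kg. With the cortical marker score in the design it was -0.92 and -0.94. Without levodopa replicate 2 and the 7.5 mg/kg replicate 1 it was -1.01 and -1.06.

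Being lower at both doses was part of the choice, so the values of both trapidil arms were used, and the difference between them is a description too. The higher dose stood 0.01 ± 0.11 from the lower in log2 fold change (SE), with a 95% interval of the fit from -0.21 to 0.23.

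**Figure D1:**
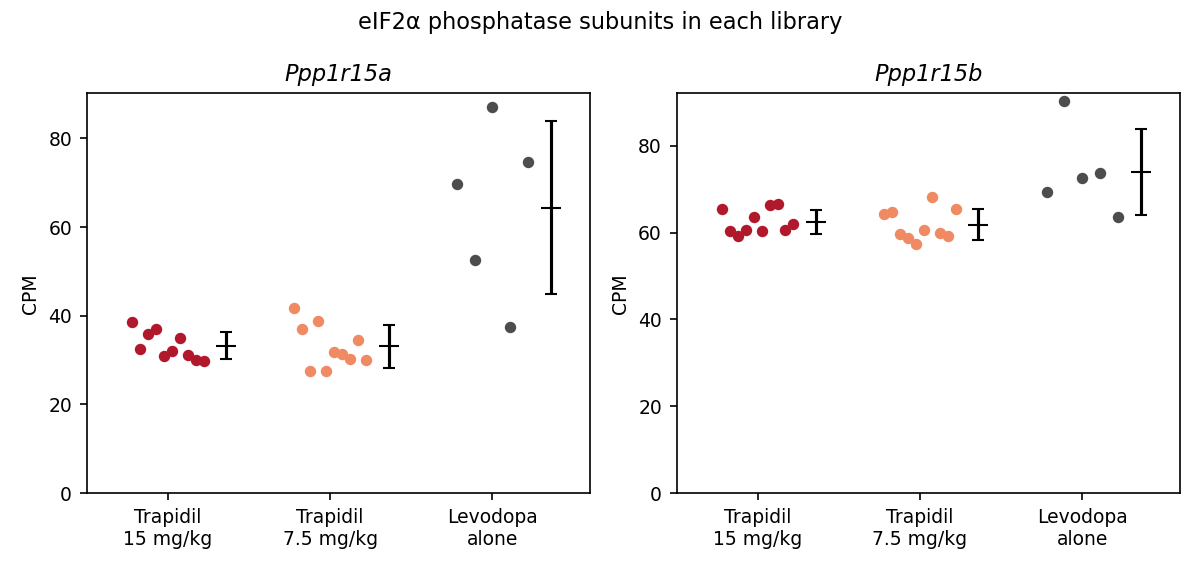
CPM of Ppp1r15a and Ppp1r15b in each library (dots) with the mean and SD of each arm (bars), for trapidil 15 mg/kg, trapidil 7.5 mg/kg and levodopa alone. Ppp1r15a averaged 33.3 CPM at 15 mg/kg, 33.1 CPM at 7.5 mg/kg and 64.4 CPM with levodopa alone, and levodopa replicate 4, at 37.5 CPM, sat among the trapidil animals.

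Ppp1r15b, the constitutive partner of the same phosphatase, had a smaller difference in the same direction. It ran from 59.3 to 66.7 CPM at 15 mg/kg (median 61.3), from 57.3 to 68.2 CPM at 7.5 mg/kg (median 60.2), and was at 69.3, 90.4, 72.7, 73.7 and 63.7 CPM in levodopa replicates 1 to 5. All 20 trapidil animals lay below the levodopa mean, and 7 of 10 at 15 mg/kg and 6 of 10 at 7.5 mg/kg lay below every levodopa animal. It fell at 15 mg/kg by 0.24 ± 0.06 on the log2 scale (SE; edgeR adjusted p = 0.0412). At 7.5 mg/kg its log2 fold change was -0.26 ± 0.06 and did not pass (adjusted p = 0.134), but it passed without the 7.5 mg/kg replicate 1 (-0.27; adjusted p = 0.0415). At 15 mg/kg against 7.5 mg/kg it was 0.02 ± 0.05 (adjusted p = 0.999; 95% interval from -0.08 to 0.12). Over all genes, 1.31% passed at 15 mg/kg (185 of 14142), made up of 0.304% that were higher and 1% that were lower. At 7.5 mg/kg 4 passed (0.0283%), and all 4 were lower.

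Of the 8 other members tested, Ppp1r15b was the 1 that passed at 15 mg/kg, and 0 passed at 7.5 mg/kg with edgeR. Of the 8, unadjusted p was below 0.05 for 3 at 15 mg/kg (1 higher, 2 lower) and for 2 at 7.5 mg/kg (1 higher, 1 lower). Over all genes that held for 19.5% at 15 mg/kg (8.26% higher, 11.2% lower) and 11.7% at 7.5 mg/kg (5.02% higher, 6.64% lower). DESeq2 called Ppp1r15b (-0.26; adjusted p = 0.0248) and Xbp1 (0.29; adjusted p = 0.037) at 7.5 mg/kg, and limma-voom called Atf3 (-1.79; adjusted p = 0.0353). The edgeR call of Ppp1r15b at 15 mg/kg was lost without levodopa replicate 2, the animal with its highest value (-0.16; adjusted p = 0.2), and without levodopa replicate 3 (-0.25; adjusted p = 0.0725). It was also lost without the 7.5 mg/kg replicate 8 (-0.24), or when a single 15 mg/kg animal other than replicate 4 was left out (-0.25 to -0.23), with adjusted p between 0.0502 and 0.079 in these fits. It was at -0.24 (adjusted p = 0.0538) without the low-count filter and at -0.16 (adjusted p = 0.0632) with limma-voom, while DESeq2 called it (-0.24; adjusted p = 0.0111). With the cortical marker score it was -0.23 (adjusted p = 0.0933), and without both levodopa replicate 2 and replicate 1 at 7.5 mg/kg -0.16 (adjusted p = 0.125).

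Of the kinases that phosphorylate eIF2α, Eif2ak3 is the endoplasmic reticulum sensor PERK. It ran from 22.9 to 31.4 CPM at 15 mg/kg (median 26.1), from 23.2 to 29.2 CPM at 7.5 mg/kg (median 26.6), and was at 30.4, 26.5, 29.1, 30.9 and 27.1 CPM with levodopa alone. The arms overlapped, and 9 of 10 animals at each dose lay below the levodopa mean. Its log2 fold change was -0.13 ± 0.07 at both doses (edgeR adjusted p = 0.281 at 15 mg/kg and 0.456 at 7.5 mg/kg). The list of 4 kinases, with Eif2ak1 (the haem-regulated kinase HRI), Eif2ak2 (the double-stranded RNA sensor PKR) and Eif2ak4 (the amino acid sensor GCN2), had 0 called members with edgeR, DESeq2 or limma-voom at either dose. Unadjusted, 1 was lower at 7.5 mg/kg, Eif2ak2 at -0.29 ± 0.12 (adjusted p = 0.365), and 0 at 15 mg/kg.

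Atf4, the transcription factor at the centre of the response, ran from 81.9 to 91.0 CPM at 15 mg/kg (median 87.0), from 71.0 to 104.3 CPM at 7.5 mg/kg (median 87.2), and was at 92.9, 118.8, 87.7, 83.7 and 95.8 CPM in levodopa replicates 1 to 5. The arms overlapped, and the highest value was again in levodopa replicate 2. In log2 fold change Atf4 was at -0.14 ± 0.07 at 15 mg/kg (edgeR adjusted p = 0.291) and -0.13 ± 0.07 at 7.5 mg/kg (adjusted p = 0.47), and neither passed. Without levodopa replicate 2 it was -0.05 and -0.04. ATF4 is controlled chiefly in translation, which RNA counts do not measure.

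Ddit3 encodes CHOP, a pro-apoptotic transcription factor that is known to induce Ppp1r15a under endoplasmic reticulum stress. It ran from 11.7 to 17.5 CPM at 15 mg/kg (median 14.8), from 10.3 to 18.0 CPM at 7.5 mg/kg (median 14.8), and was at 17.4, 18.6, 15.5, 13.4 and 17.1 CPM with levodopa alone. The arms overlapped over most of their range. Ddit3 had a log2 fold change of -0.14 ± 0.11 at 15 mg/kg (edgeR adjusted p = 0.5; 95% interval from -0.37 to 0.08) and -0.18 ± 0.11 at 7.5 mg/kg (adjusted p = 0.533; -0.40 to 0.05).

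Atf3, a stress-inducible and activity-inducible factor of the same bZIP family, was scarce. It ran from 0.117 to 1.62 CPM at 15 mg/kg (median 0.462), from 0.106 to 4.13 CPM at 7.5 mg/kg (median 0.435), and was at 2.20, 2.28, 1.61, 0.844 and 1.06 CPM in levodopa replicates 1 to 5. These are 2 to 26 reads per library at 15 mg/kg, 2 to 45 at 7.5 mg/kg and 16 to 40 with levodopa alone. Of the trapidil animals, 9 of 10 at 15 mg/kg and 8 of 10 at 7.5 mg/kg lay below every levodopa animal, while replicate 1 was the highest of its arm at both doses. Its log2 fold change was -1.62 ± 0.56 at 15 mg/kg (edgeR adjusted p = 0.107; 95% interval from -2.76 to -0.48) and -1.002 ± 0.548 at 7.5 mg/kg (adjusted p = 0.479; -2.13 to 0.12), and neither passed. Without the 7.5 mg/kg replicate 1, which carried 4.13 CPM, it passed at 15 mg/kg (-1.62; adjusted p = 0.0326) and was at -1.69 at 7.5 mg/kg (adjusted p = 0.0669). It also passed at 15 mg/kg with those 2 arms alone in the fit (-1.62 ± 0.41; adjusted p = 0.0385) and with limma-voom (-1.73; adjusted p = 0.0108).

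Among the targets further down the pathway, none passed. Asns, asparagine synthetase, ran from 39.2 to 54.1 CPM at 15 mg/kg (median 47.3), from 44.2 to 53.2 CPM at 7.5 mg/kg (median 47.8), and was at 45.0, 33.8, 49.6, 47.7 and 46.8 CPM with levodopa alone. Its log2 fold change was 0.08 ± 0.07 at 15 mg/kg and 0.12 ± 0.07 at 7.5 mg/kg (edgeR adjusted p = 0.571 and 0.53), and without levodopa replicate 2, the lowest animal, it was 2.73e-06 and 0.04. Chac1, which encodes a glutathione-degrading enzyme, ran from 5.72 to 11.3 CPM at 15 mg/kg (median 9.27), from 7.77 to 14.1 CPM at 7.5 mg/kg (median 10.1), and was at 13.7, 10.1, 8.35, 9.55 and 11.4 CPM with levodopa alone. It overlapped in all arms, with log2 fold changes of -0.22 ± 0.14 at 15 mg/kg (adjusted p = 0.411) and -0.02 ± 0.14 at 7.5 mg/kg (adjusted p = 0.97). Trib3, a pseudokinase that restrains ATF4 and CHOP, had 1 to 6 reads per library at 15 mg/kg, 0 to 7 at 7.5 mg/kg and 0 to 7 with levodopa alone. At that depth no difference was detectable. Without the low-count filter Trib3 was at -0.60 ± 0.65 at 15 mg/kg and 0.10 ± 0.63 at 7.5 mg/kg (adjusted p = 0.675 and 0.989).

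Xbp1, the transcription factor of the IRE1 branch of the unfolded protein response, lay on the other side. It ran from 26.4 to 35.2 CPM at 15 mg/kg (median 29.4), from 27.0 to 35.8 CPM at 7.5 mg/kg (median 31.3), and was at 28.3, 22.02, 26.8, 24.5 and 26.5 CPM in levodopa replicates 1 to 5. All 20 trapidil animals lay above the levodopa mean, and 8 of 10 at each dose lay above every levodopa animal. In log2 fold change Xbp1 stood at 0.23 ± 0.07 at 15 mg/kg (edgeR adjusted p = 0.0881) and 0.29 ± 0.07 at 7.5 mg/kg (adjusted p = 0.135), and neither passed. The counts cover all its transcripts together, so the spliced form that IRE1 makes was not measured. Without levodopa replicate 2, the lowest animal, it was 0.18 and 0.25.

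**Figure D2:**
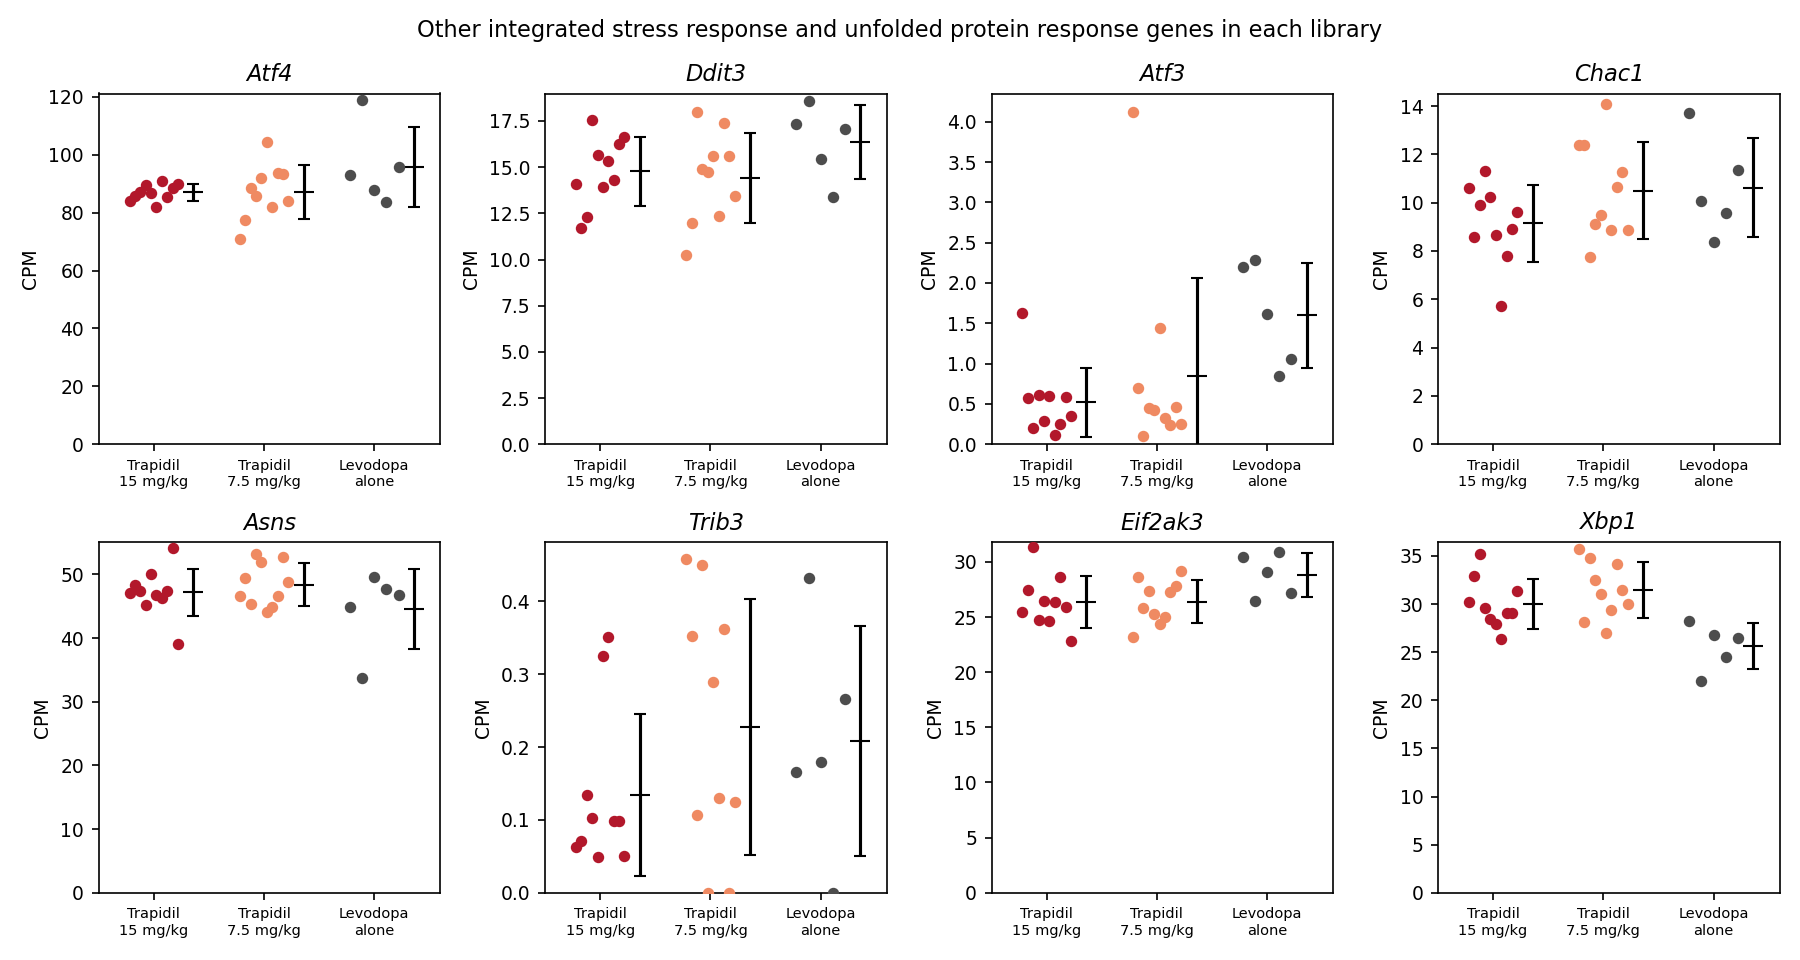
CPM of the 8 members other than the phosphatase subunits in each library (dots), with the mean and SD of each arm (bars, drawn down to 0 where the SD exceeds the mean), for trapidil 15 mg/kg, trapidil 7.5 mg/kg and levodopa alone. Xbp1 had medians of 29.4 CPM at 15 mg/kg, 31.3 CPM at 7.5 mg/kg and 26.5 CPM with levodopa alone, and the high Atf3 value at 7.5 mg/kg, 4.13 CPM, is replicate 1.

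**Figure D3:**
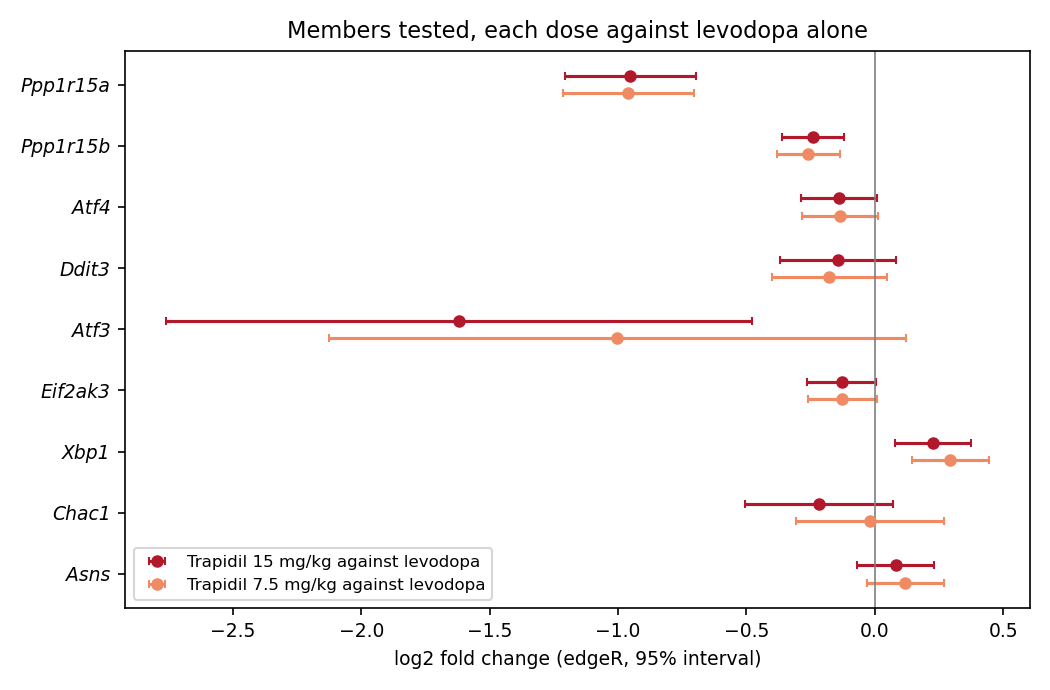
Log2 fold change of the 9 members tested (points) with the 95% interval of the edgeR fit (bars), for trapidil 15 mg/kg and 7.5 mg/kg, each against levodopa alone. Ppp1r15a is shown as a description, at -0.95 and -0.96; the interval of Atf3 was the widest of the 9.

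Between the doses, 0 of the 8 other members tested passed, where 4 of 14142 genes, 0.0283%, did. By edgeR 0 of the 8 were below an unadjusted p of 0.05, against 3.63% of all genes, and DESeq2 and limma-voom called 0 as well. The log2 fold changes at 15 mg/kg against 7.5 mg/kg lay between -0.20 (Chac1) and 0.03 (Ddit3) apart from Atf3, at -0.62 ± 0.51 (adjusted p = 0.999). Without the 7.5 mg/kg replicate 1, Atf3 was at 0.07. No member had ranges that did not overlap in any comparison; of all genes the ranges were apart for 0.707% at 15 mg/kg, 0.0919% at 7.5 mg/kg and 0% between the doses.

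Of 9 subunits of eIF2 and of eIF2B, its guanine nucleotide exchange factor, 0 were called or below an unadjusted p of 0.05 with edgeR at either dose, and 0 by DESeq2 or limma-voom. Their medians were -0.03 at 15 mg/kg and -0.000222 at 7.5 mg/kg, beside medians of 0.000683 and 0.00368 over all genes, and their log2 fold changes spanned -0.08 to 0.03 and -0.04 to 0.08. The smallest p was that of Eif2s3y at 15 mg/kg (-0.07 ± 0.06; adjusted p = 0.542) and of Eif2b4 at 7.5 mg/kg (0.08 ± 0.07; adjusted p = 0.67). Of 13 subunits and regulators of protein phosphatase 1 (medians 0.04 and 0.02), 0 were called by edgeR, with 2 higher and 1 lower unadjusted at 15 mg/kg and 1 higher at 7.5 mg/kg. Ppp1r2, inhibitor 2 of the phosphatase, came nearest, at 371 CPM with the higher dose and 369 CPM with the lower, against 303 CPM with levodopa alone. Its log2 fold change was 0.29 ± 0.09 at 15 mg/kg (adjusted p = 0.0715) and 0.28 ± 0.09 at 7.5 mg/kg (adjusted p = 0.218). DESeq2 called it at 15 mg/kg (adjusted p = 0.0313) and limma-voom at both doses.

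Of 34 further ATF4 targets with enough reads, among them amino acid transporters, serine and glycine synthesis enzymes and aminoacyl-tRNA synthetases, 0 were called by edgeR, DESeq2 or limma-voom at either dose. Unadjusted, 2 were higher and 4 lower at 15 mg/kg and 2 higher and 1 lower at 7.5 mg/kg. Their medians were -0.02 and -0.02, with 20 of 34 negative at each dose, or 58.8%, against 49.8% and 48.9% of all genes. The smallest p at 15 mg/kg was that of Slc7a5, a carrier of large neutral amino acids, at -0.35 ± 0.12 (adjusted p = 0.101; lower in 10 of 10 animals than the levodopa mean). At 7.5 mg/kg it was that of the cationic amino acid transporter Slc7a1, at -0.29 ± 0.11 (adjusted p = 0.308; 9 of 10 animals).

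Of 30 genes of the ATF6 and XBP1 branches, chiefly chaperones, folding enzymes and factors that export misfolded proteins, 0 were called by the 3 tools at either dose. Of the 30 log2 fold changes, 21 were positive at 15 mg/kg (median 0.05) and 22 at 7.5 mg/kg (median 0.05), leaving 30% and 26.7% negative, against 49.8% and 48.9% of all genes. Unadjusted, 2 were higher at 15 mg/kg and 1 at 7.5 mg/kg, and 0 were lower. Pdia6, a disulfide isomerase, had the smallest p at 15 mg/kg, at 0.13 ± 0.05 (adjusted p = 0.182). Hspa5, the chaperone BiP and a standard readout of endoplasmic reticulum stress, had the smallest at 7.5 mg/kg. It averaged 327 CPM with the higher dose and 321 CPM with the lower, against 274 CPM with levodopa alone, with log2 fold changes of 0.25 ± 0.11 (adjusted p = 0.184) and 0.23 ± 0.11 (adjusted p = 0.407).

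**Figure D4:**
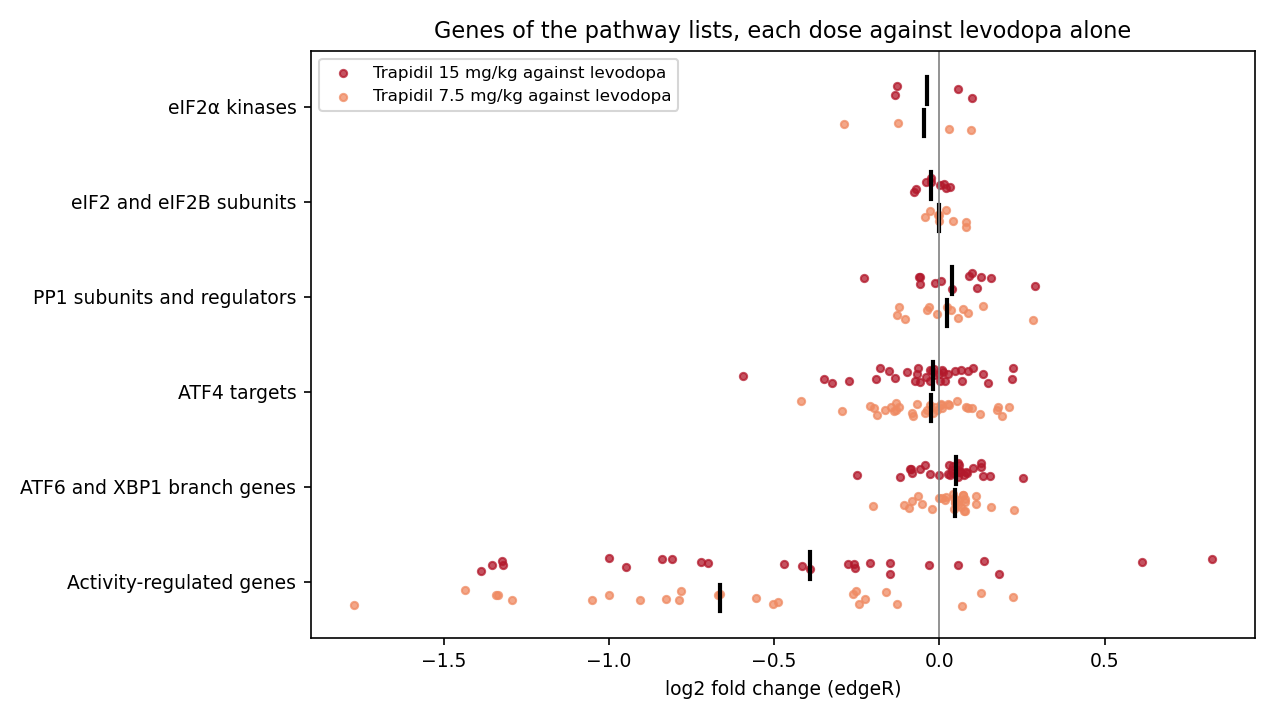
Log2 fold change of each tested gene (dots) of 6 pathway lists, with the list median (black ticks), for trapidil 15 mg/kg and 7.5 mg/kg against levodopa alone. The kinase, eIF2, phosphatase, ATF4 target and ATF6 and XBP1 lists centre near 0, and the activity-regulated genes have medians of -0.39 and -0.66.

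Ppp1r15a is also transcribed in response to growth factors and neuronal activity, so it was set beside activity-regulated genes. Of 25 such genes, edgeR called 5 lower at 15 mg/kg, where 1% of all genes were, and 2 lower at 7.5 mg/kg, where 0.0283% were. Their medians were -0.39 and -0.66. DESeq2 called 6 and limma-voom 10 lower at 15 mg/kg, and 9 and 13 lower at 7.5 mg/kg. Both also called Nr4a3, a nuclear receptor gene, higher at 15 mg/kg (0.82 and 0.87). Between the doses edgeR called 0 of the 25, with 8 higher and 0 lower at 15 mg/kg at an unadjusted p below 0.05. Over all genes 3.63% were below that p, in either direction. DESeq2 called 1 and limma-voom 2 higher at 15 mg/kg than at 7.5 mg/kg. This list too was chosen with earlier results of these data known. The genes edgeR called at 15 mg/kg, named after their values were seen, were Jun, Arc, Btg2 (log2 fold change -1.39), Gadd45g (-0.84) and Dusp6 (-0.81), and those at 7.5 mg/kg were Btg2 (-1.33) and Dusp6 (-0.91). Jun, a subunit of the AP-1 factor, fell at 15 mg/kg by 1.32 ± 0.22 on the log2 scale (edgeR adjusted p = 0.00751), and Arc, a synaptic plasticity gene, by 1.35 ± 0.33 (adjusted p = 0.0414). Without levodopa replicate 3 these were -1.11 (adjusted p = 0.0543) and -1.20 (adjusted p = 0.0936). Arc also lost its call without levodopa replicate 1, 2 or 5 (-1.35 to -1.27) and when a single 15 mg/kg animal other than replicate 4 was left out (-1.41 to -1.29). At 7.5 mg/kg Jun was at -1.05 ± 0.23 (adjusted p = 0.0924) and Arc at -1.34 ± 0.33 (adjusted p = 0.135), neither called by edgeR. At that dose DESeq2 called Jun (adjusted p = 0.0293), and limma-voom called Jun (-1.24; adjusted p = 0.00194) and Arc (-1.70; adjusted p = 0.00194). Fos was at -1.32 ± 0.41 and -1.43 ± 0.41, Dusp1, a MAP kinase phosphatase, at -0.95 ± 0.29 and -1.29 ± 0.29, and Egr1 at -0.26 ± 0.17 and -0.66 ± 0.17, at 15 and 7.5 mg/kg, and edgeR called none of these. At 15 mg/kg limma-voom called Fos (adjusted p = 0.00903) and Dusp1 (adjusted p = 0.0106). At 7.5 mg/kg it called Fos (adjusted p = 0.00178), Dusp1 (adjusted p = 0.00028) and Egr1 (adjusted p = 0.0298), and DESeq2 called Dusp1 and Egr1 (adjusted p = 0.037 for each). Without the 7.5 mg/kg replicate 1, the calls at 7.5 mg/kg included Fos (-1.93), Jun (-1.20), Arc (-1.70) and Dusp1 (-1.60).

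Several activity-regulated genes were among those whose level followed that of Ppp1r15a most closely from animal to animal, and the best placed of the other members ranked, Xbp1, was at rank 2016. Likeness was measured as Pearson's r of log2 CPM after taking out each arm's mean, over 25 libraries and 13074 genes, and serves as a description. The 10 highest were Dusp2 (r = 0.84), Trib1 (0.83), Jun (0.82), Ier5 (0.81), LOC691995 (0.77), Galnt16 (0.77), Kif3c (0.77), Junb (0.76), Dusp1 (0.76) and Fos (0.75). Over the 20 trapidil libraries alone their r lay between 0.50 (LOC691995) and 0.79 (Trib1). Of these 10, edgeR called Dusp2 at 15 mg/kg (-1.88 ± 0.27; adjusted p = 0.000927) and at 7.5 mg/kg (-1.65 ± 0.27; adjusted p = 0.013), and Jun at 15 mg/kg. The other 8 were not called at either dose, among them Galnt16 and Kif3c, at 0.04 ± 0.05 and 0.01 ± 0.07 at 15 mg/kg. Among the 7 other members ranked, which leave out Atf3 and Trib3, r over 25 libraries was highest for Xbp1 (0.29) and Chac1 (0.24) and lowest for Atf4 (-0.23) and Ppp1r15b (-0.19). Over the 20 trapidil libraries alone the order differed. There r was highest for Chac1 (0.38) and lowest for Atf4 and Ddit3 (-0.48 each), with Ppp1r15b at 0.18 and Xbp1 at 0.12. In the levodopa arm Ppp1r15a and Jun ranked the 5 animals in the same order, with replicate 4 lowest (37.5 and 48.5 CPM) and replicate 3 highest (87.2 and 190.7 CPM).

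Within an arm, Ppp1r15a was related to 14 genes, the 9 other members and Fos, Jun, Egr1, Arc and Dusp1, in 28 relations over both trapidil arms, with Benjamini-Hochberg adjustment over the 28. In the 7.5 mg/kg arm (n = 10) it was higher where Dusp1 was higher (r = 0.86, permutation p = 9e-05, adjusted 0.00238; rho = 0.88, permutation p = 0.00153, adjusted 0.0343). The same held for Arc (r = 0.88, permutation p = 0.00017, adjusted 0.00238; rho = 0.86, permutation p = 0.00288, adjusted 0.0343) and for Fos (r = 0.86, permutation p = 0.00044, adjusted 0.00411; rho = 0.84, permutation p = 0.00368, adjusted 0.0343). Without replicates 1 and 4, the animals farthest from the median of Ppp1r15a, r was 0.91 for Dusp1, 0.86 for Arc and 0.83 for Fos, but with 8 animals per arm 0 of the 28 relations passed. Jun had r = 0.80 (permutation p = 0.0033, adjusted 0.0231) and rho = 0.77 (permutation p = 0.0127, adjusted 0.0591), with r = 0.57 without those 2 animals. Of the stress genes in that arm Atf3 came nearest (r = 0.67, permutation p = 0.0232, adjusted 0.108; rho = 0.81, permutation p = 0.00726, adjusted 0.0508), on few reads, and r was 0.46 without those 2 animals. Ddit3 and Atf4 had negative r, at -0.64 (permutation p = 0.048, adjusted 0.168; rho = -0.50, permutation p = 0.144, adjusted 0.448) and -0.59 (permutation p = 0.0733, adjusted 0.228; rho = -0.39, permutation p = 0.265, adjusted 0.636), and without those 2 animals r was -0.53 and -0.30. The arm's replicate 1 was both the highest in Ppp1r15a and the one that stood apart in total and cortical markers.

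In the 15 mg/kg arm (n = 10), where Ppp1r15a varied less, 0 of the 14 relations passed. The highest r were those of Atf3, at 0.45 (permutation p = 0.195, adjusted 0.497; rho = 0.25, permutation p = 0.492, adjusted 0.716), and Fos, at 0.42 (permutation p = 0.23, adjusted 0.536; rho = 0.47, permutation p = 0.179, adjusted 0.5). Without the 2 animals farthest from the median of Ppp1r15a these were -0.52 for Atf3 and 0.59 for Fos. Whether the relations differ between the arms was not tested.

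**Figure D5:**
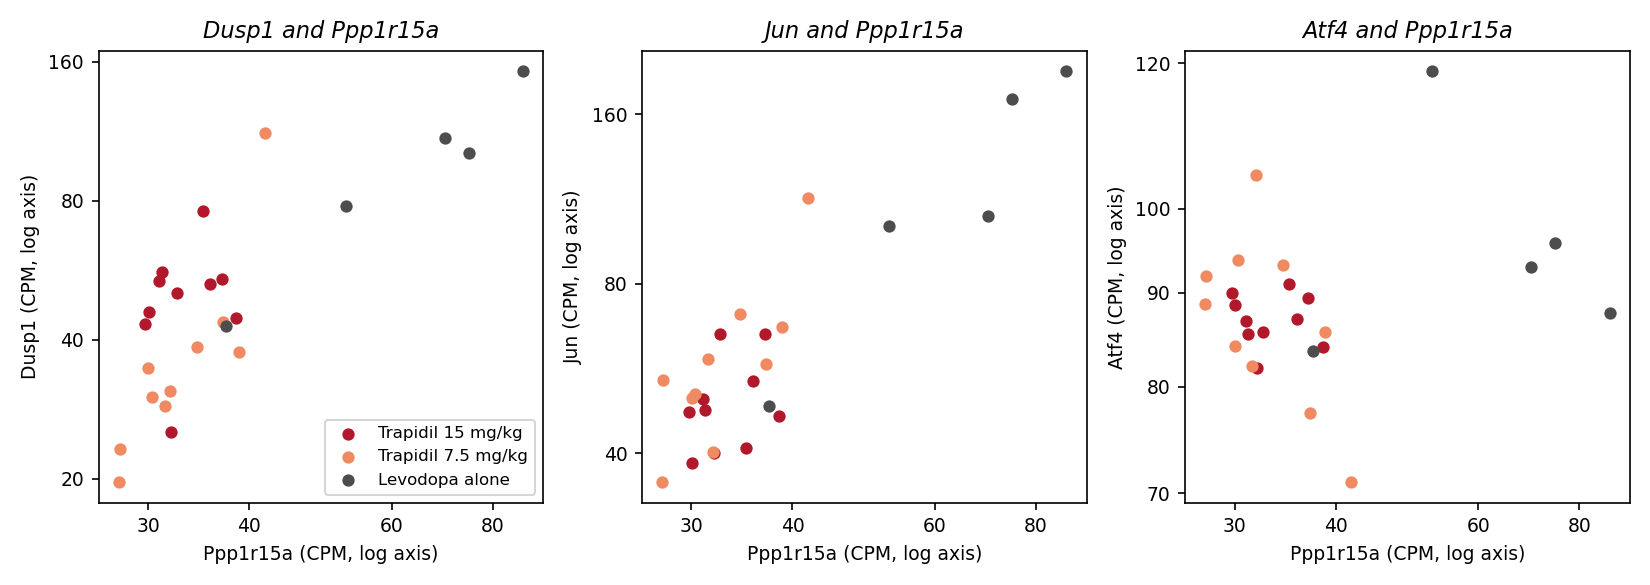
CPM of Dusp1, Jun and Atf4 against CPM of Ppp1r15a in each of the 25 libraries (dots), with both axes logarithmic and colours for trapidil 15 mg/kg, trapidil 7.5 mg/kg and levodopa alone. Dusp1 and Jun were higher in animals with higher Ppp1r15a in the 7.5 mg/kg arm (r = 0.86 and 0.80), and Atf4 was not (r = -0.59).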

How the data were processed

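Polyadenylated striatal RNA of 25 animals was sequenced, 1 library each. The authors deposited raw counts per gene name; per the submitters' processing notes, FastQC, STAR and HTSeq were used on the Rnor_6.0 build. Their versions, the annotation, the strand setting and read filters are not given in the sources used here, so reads of overlapping, antisense and near-identical genes cannot be told apart. Arms were read from the labels. Animals are taken as separate, since the labels describe randomised animals; no pair of libraries of an arm agreed within sampling noise (lowest chi-square per degree of freedom 4.83). No batch was given.

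With edgeR 4.0.16 in R 4.3.3, filterByExpr kept 14142 genes, TMM scaled the libraries, and a quasi-likelihood model with a term for the arm was fitted over the 25 libraries together. Adjusted p-values are Benjamini-Hochberg over those genes, two-sided, with a threshold of 0.05; each adjusted p of a gene is from edgeR unless another tool is named. Fold changes carry standard errors, obtained by dividing each by the root of its F statistic. Intervals are at 95%. The fit pools the spread of the arms although levodopa animals varied more for Ppp1r15a, so its error can be too small. The same holds for Ppp1r15b (coefficient of variation 13.5%, against 4.42% at 15 mg/kg and 5.8% at 7.5 mg/kg). It holds too for Jun (46.5%, against 19.2% and 36.3%), but not for every gene (Eif2ak3 6.81%, against 8.98% and 7.34%). CPM are the deposited counts over the TMM-scaled library size. Relations used log2 CPM with a pseudocount of 2 and 100000 two-sided permutations. The edgeR steps were tested on simulated counts, for 15 mg/kg against levodopa alone. In the simulation a gene had the same spread in every arm, so it does not cover the unequal spread named above. The relations were not tested on simulated data.

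DESeq2 1.42.0 and limma 3.58.1 (voom with quality weights), other scalings, filters, covariates, the replicate number as a block and leaving out each library were alternatives. The members and lists were chosen with earlier results of these data known. All members were named. Of the 5 stress pathway lists the gene with the smallest p was named, with Fos, Jun, Egr1, Arc and Dusp1 and the 10 genes of at least 1 CPM most like Ppp1r15a. Other genes were named after their values were seen. Aldh18a1, Gdf15 and Fgf21 of the ATF4 targets and Derl3 of the ATF6 and XBP1 list had too few reads.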

Additional observations from a re-analysis of the deposited data

Results flagged for a closer look

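In 5 genes the 7.5 mg/kg replicate 1 lay far above the other 9 animals of its arm. It had 596.9 CPM of Arc, with the next animal at 239.4 CPM, 4.126 CPM of Atf3 (next 1.445), 112.5 CPM of Dusp1 (next 43.59), 63.17 CPM of Fos (next 20.71) and 113.6 CPM of Jun (next 70.54). The same library had the lowest total, 10838513 counts, and the highest summed cortical neuron, oligodendrocyte, astrocyte, endothelial and microglial markers of its arm. The part of these in the 5 values was not tested. At 15 mg/kg, replicate 1 had 1.624 CPM of Atf3, with the next animal at 0.6153 CPM. Of 45 gene and arm groups examined in this way, 6 had such a library. Chance gives about 5% per group, but 5 of the 6 were the same library, so the groups were not independent. The count therefore cannot be weighed against that share.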

How the results depend on the processing

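Ppp1r15a was lower at both doses under every alternative run. Its log2 fold changes were -1.07 to -0.87 at 15 mg/kg and -1.10 to -0.87 at 7.5 mg/kg, apart from the fits without 1 library. In those fits they were -1.10 to -0.82 at 15 mg/kg and -1.10 to -0.83 at 7.5 mg/kg. Replicate numbers were not treated as pairs in the main fit. Between 15 mg/kg and levodopa animals of the same number, deviations from the arm means correlated from -0.415 to 0.197, and above 0.1 in 3 of 5 pairs. So few correlations cannot decide whether animals of the same number were handled together. With the replicate block Ppp1r15a was at -0.87 ± 0.15 at both doses, Ppp1r15b at 15 mg/kg was at -0.25 (adjusted p = 0.165), and 0 genes and 0 members were called against levodopa at either dose.

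At 15 mg/kg the count of 185 genes became 627 with DESeq2 (216 higher, 411 lower), 715 with limma-voom, 448 with those arms alone, 862 at a threshold of 0.10, 29 with the cortical score and 76 without both levodopa replicate 2 and replicate 1 at 7.5 mg/kg. Leaving out 1 library gave 9 (without levodopa replicate 3) to 894 (without levodopa replicate 4). The 1 further member called became 2 with those arms alone and at 0.10, and 0 without the low-count filter, with the cortical score and without both libraries, and 0 to 2 with 1 library left out.

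At 7.5 mg/kg the count of 4 became 7 without the filter, 54 with DESeq2, 102 with limma-voom, 1 with those arms alone, 11 at 0.10 and 27 without both libraries, with 1 (without levodopa replicate 3) to 70 (without the 7.5 mg/kg replicate 1) when 1 library was left out. Further members called were 2 with DESeq2 and 1 with limma-voom, and 0 to 1 with 1 library left out. Between the doses the count of 4 became 13 with limma-voom and 9 without both libraries, and 4 to 8 with 1 library left out. The 4 relations that passed became 0 without the 2 farthest animals, which leaves 8 per arm.

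Signs that turned were those of values near 0 or of Atf3 and the activity genes between the doses; the cause was not tested. Without both libraries Asns at 15 mg/kg was at -2.77e-05, and between the doses Ddit3 was at -0.00819, Atf3 at 0.0662 and Arc at 0.347. With the replicate block Chac1 at 7.5 mg/kg was at 0.0522, and between the doses Atf4 was at 0.000717 and Arc at 0.106. Between the doses limma-voom gave Atf3 0.0597 and Arc 0.36, the cortical score gave Arc 0.181, and upper quartile scaling gave Eif2ak3 0.00127. With 1 library left out, Chac1 at 7.5 mg/kg ran from -0.093 to 0.0908. Between the doses Ppp1r15a ran from -0.0177 to 0.0497, Atf4 from -0.0334 to 0.028, Ddit3 from -0.00821 to 0.0733, Atf3 from -0.974 to 0.0675, Eif2ak3 from -0.0326 to 0.0185, Fos from -0.00785 to 0.603 and Arc from -0.118 to 0.348.

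With 5 levodopa animals, 1 of them can decide a call. Atf3 and Trib3 rest on few reads, and differences in them below several-fold were not detectable. RNA counts do not measure eIF2α phosphorylation, phosphatase activity, translation or Xbp1 splicing.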
